A study of Homo sapiens with 8 samples.

Results

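The genes described here are 34 DNA replication and G1/S genes, which serve the licensing of replication origins, the replication fork, the supply of nucleotides and the entry into S phase. They were found by name, as the rows of the deposited count table whose NCBI Gene ID carries one of 34 RefSeq symbols. All 34 were found among the 18555 genes of the table, and all 34 passed the filter on low counts, which left 14337 genes. RNA-seq compared 3 siNC libraries (cells given the Allstar control siRNA) with 3 siXBP1 libraries (cells given an siRNA against XBP1). All 6 came from cells labelled HepG2, a human hepatocellular carcinoma line, and all received 30 nM thapsigargin for 3 hours, 2 days after transfection. Thapsigargin inhibits SERCA, which pumps calcium into the endoplasmic reticulum, and so triggers the unfolded protein response, in which XBP1 is a transcription factor. Because no RNA-seq group went without thapsigargin, the comparison concerns XBP1 knockdown in stressed cells only. Whether replicates came from separate cultures is not said in the labels, and the p-values therefore cover only the spread among these 6 libraries, which may be technical.

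XBP1 itself, the check of the knockdown, had 552, 502 and 500 CPM (counts scaled to library size) in siNC replicates 1 to 3 and 290, 299 and 276 CPM in siXBP1 replicates 1 to 3. This left 55.7% of the control level on average, so the loss of XBP1 RNA was partial. Counts per gene do not separate the forms of XBP1 RNA, and its protein was not measured here. Defining transcripts of hepatocytes were at or near 0 where named here. AFP, TF and SERPINA1 were at no more than 0.155, 0.104 and 0.416 CPM in any library, and 5 others, ALB and APOA1 among them, had no row. Of 7 markers of other epithelial lines, KRT17 (2941 to 3938 CPM) and KRT7 (1221 to 1734 CPM) were high in all 6 libraries and KRT14 was at 6.92 to 12.0 CPM, whereas KRT5, KRT19, CDH1 and EPCAM reached no more than 0.103, 0.825, 0.624 and 0.103 CPM. The cells are therefore called here only by their label. Leukocyte markers summed to 37.5 to 44.1 CPM in siNC and 40.5 to 43.5 in siXBP1, nearly all of it CD68, and fibroblast markers to 189 to 220 and 193 to 224 CPM. Of the fibroblast markers COL3A1 was at 116.5 to 141.8 CPM, COL1A1 at 34.05 to 49.0 and DCN at 26.25 to 31.77. PDGFRB was at 5.04 to 6.02 CPM and COL1A2 at no more than 0.052 CPM. Endothelial markers summed to 7.74 to 9.33 CPM in siNC and 6.32 to 8.87 in siXBP1. Library totals ran from 38209972 to 38890070 counts.

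Before S phase, the origin recognition complex (ORC) together with CDC6 and CDT1 loads the MCM2-7 helicase onto origins, which is called licensing. CDC45 and the GINS complex then join MCM2-7 to form the active helicase, and DNA polymerases follow behind it, held by the sliding clamp PCNA. Transcription factors of the E2F family, released when cyclin-dependent kinases phosphorylate the RB protein, switch on most of these genes around the G1/S transition. In bulk RNA, fewer cells in S phase and less RNA per cell cannot be told apart.

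The promoters of the members are shown first, because most of those with a window hold an E2F motif. The motif itself was not used to choose the members. Since E2F factors switch on most genes of this kind, a high share follows from the choice of list and is no independent finding. RefSeq windows (GRCh38.p14) from 250 bases before to 50 bases after the annotated start were at hand for 29 of 34 members. The E2F motif was searched on both strands as any of TTTCCCGC, TTTGGCGC, TTTGCCGC or TTTCGCGC. It was present for 18 of 29 members (62.1%), against 6.48% of 11290 tested genes with such a window. A CCAAT box, the letters CCAAT bound by NF-Y, was present for 21 of 29 members (72.4%) and 42.9% of tested genes. The letters ACGTG, the core of sites that XBP1 binds, were present for 9 of 29 members (31%), near the share among tested genes (31.9%). The longer form TGACGTG, which contains that core, was found for POLA1 alone among the members (3.45%, against 3.28% of tested genes). The cell cycle homology region (CHR), searched as TTTGAA or TTCGAA, was found for 2 of 29 members and 15.6% of tested genes. A match to these letters is a description and not a measured site. The 6 sequences below run 5′ to 3′ from 150 bases before to 20 after the start, with E2F matches in capitals. CDC6 had the lowest fold change among the members, CDT1 is its partner in licensing, and GINS3 was higher in all siXBP1 libraries. MCM2, E2F1 and POLA1 stand for members that differed mainly between libraries of the same group.
CDC6: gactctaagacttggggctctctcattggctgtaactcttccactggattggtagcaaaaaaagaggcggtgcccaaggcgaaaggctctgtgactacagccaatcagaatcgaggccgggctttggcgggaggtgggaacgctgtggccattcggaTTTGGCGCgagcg
CDT1: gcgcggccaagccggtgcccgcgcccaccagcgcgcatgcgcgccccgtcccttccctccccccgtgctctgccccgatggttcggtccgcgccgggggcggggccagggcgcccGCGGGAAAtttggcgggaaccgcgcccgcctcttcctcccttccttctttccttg
GINS3: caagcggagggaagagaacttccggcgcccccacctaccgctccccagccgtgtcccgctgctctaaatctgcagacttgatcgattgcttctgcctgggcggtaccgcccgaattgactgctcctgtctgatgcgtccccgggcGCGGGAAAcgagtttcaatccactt
MCM2: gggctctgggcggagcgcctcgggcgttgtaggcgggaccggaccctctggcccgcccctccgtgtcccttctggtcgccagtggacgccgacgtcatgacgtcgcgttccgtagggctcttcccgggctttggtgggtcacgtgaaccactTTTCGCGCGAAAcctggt
E2F1: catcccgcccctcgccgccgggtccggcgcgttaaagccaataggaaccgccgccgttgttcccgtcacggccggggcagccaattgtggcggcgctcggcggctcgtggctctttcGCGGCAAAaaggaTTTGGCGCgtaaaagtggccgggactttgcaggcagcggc
POLA1: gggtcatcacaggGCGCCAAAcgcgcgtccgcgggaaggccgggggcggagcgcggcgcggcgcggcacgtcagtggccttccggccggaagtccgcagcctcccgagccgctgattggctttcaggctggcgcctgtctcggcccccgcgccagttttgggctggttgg
They lie at chr17:40287729-40287898, plus strand (CDC6), chr16:88803639-88803808, plus strand (CDT1), chr16:58392321-58392490, plus strand (GINS3), chr3:127598261-127598430, plus strand (MCM2), chr20:33686366-33686535, minus strand (E2F1) and chrX:24693768-24693937, plus strand (POLA1). In MCM2 a pair of overlapping matches on opposite strands forms the palindrome in capitals, whose first base is the third of the transcript, whereas in POLA1 the match begins 137 bases before the start. In CDC6 the marked match begins at base 8 of the transcript. Only the words listed above were searched, so near forms such as tttggcggg, present in CDC6 and CDT1, stay in lower case. CDC6, with the lowest fold change, and MCM2, with a fold change close to 0, both carry a match within the first bases of the transcript. Neither CDC6 nor GINS3 holds ACGTG in its 300-base window. Whether motif matches go with fold changes, or whether XBP1 binds at these genes, was not tested.

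No member passed the test between siXBP1 and siNC. By edgeR's quasi-likelihood test, with p adjusted over all 14337 genes, 0 of 34 members were called, where 0.00697% of tested genes were called (XBP1 alone). DESeq2 and limma-voom also called 0 members, against 0.105% and 0.00697% of tested genes. At an unadjusted p under 0.05, edgeR gave 1 member, CDC6, or 2.94%, where 3.61% of tested genes passed. The estimates were higher in siXBP1 for 19 members and lower for 15, and their median log2 fold change was 0.02, beside 0.01 over all genes tested. The 95% interval of the log2 fold change lay between -0.5 and 0.5 for 33 of 34 members, the exception being CCNE2 (-0.63 to 0.44), and for 57.1% of all genes tested. The summed level of the members was 5519, 5581 and 5448 CPM in siNC replicates 1 to 3 and 5406, 5663 and 5375 CPM in siXBP1 replicates 1 to 3, so that the groups overlapped.

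**Figure D1:**
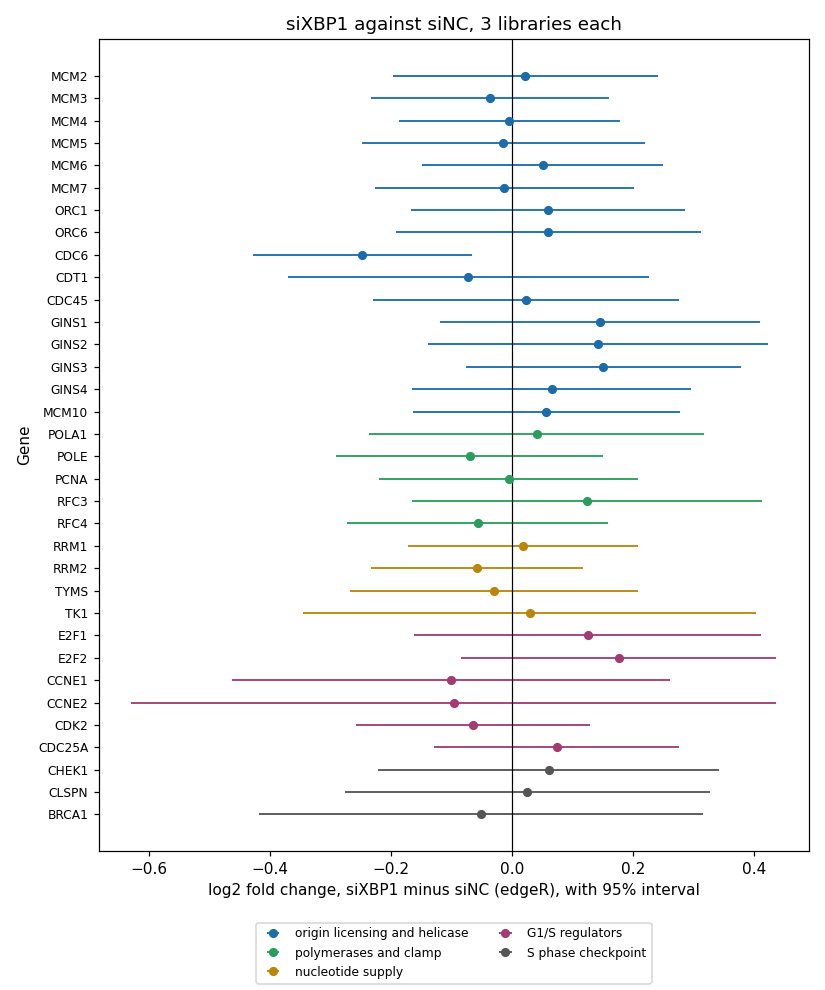
Log2 fold change of each of the 34 genes, siXBP1 minus siNC, as points with 95% intervals from edgeR (3 libraries per group), coloured by role. The interval of CDC6 (-0.43 to -0.07) alone does not include 0, and that of CCNE2 is the widest.

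The groups did not overlap for 3 of 34 members (8.82%), a share near that of all tested genes (8.75%). CDC6 and RRM2 were lower in every siXBP1 library than in every siNC library (5.88% of members, 3.74% of tested genes), and GINS3 was higher (2.94% of members, 5.01% of tested genes).

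CDC6, the ATPase that with ORC and CDT1 loads the MCM helicase, was the member with the largest difference. It had 303, 322 and 310 CPM in siNC replicates 1 to 3 and 258, 269 and 258 CPM in siXBP1 replicates 1 to 3. The lowest siNC library thus exceeded the highest siXBP1 library, and the siXBP1 mean (262 ± 6.33 CPM, SD, n = 3) was 84.1% of the siNC mean (311 ± 9.52 CPM, SD, n = 3). The log2 fold change was -0.25 (SE 0.08, 95% interval -0.43 to -0.07). The edgeR p was 0.0124 before and 1.00 after adjustment, rank 133 among all 14337 genes. With the score on the first principal component of the libraries as a covariate, CDC6 fell by 0.25 on the log2 scale (SE 0.06, adjusted p = 0.023), the 1 member called in that fit, in which 0.488% of tested genes were called as lower and 0.711% as higher. Since the component comes from the very libraries tested, SEs in that fit may be too small. In each of the 16 alternative fits the log2 fold change of CDC6 lay between -0.28 and -0.23, with adjusted p from 0.023 to 1.00.

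**Figure D2:**
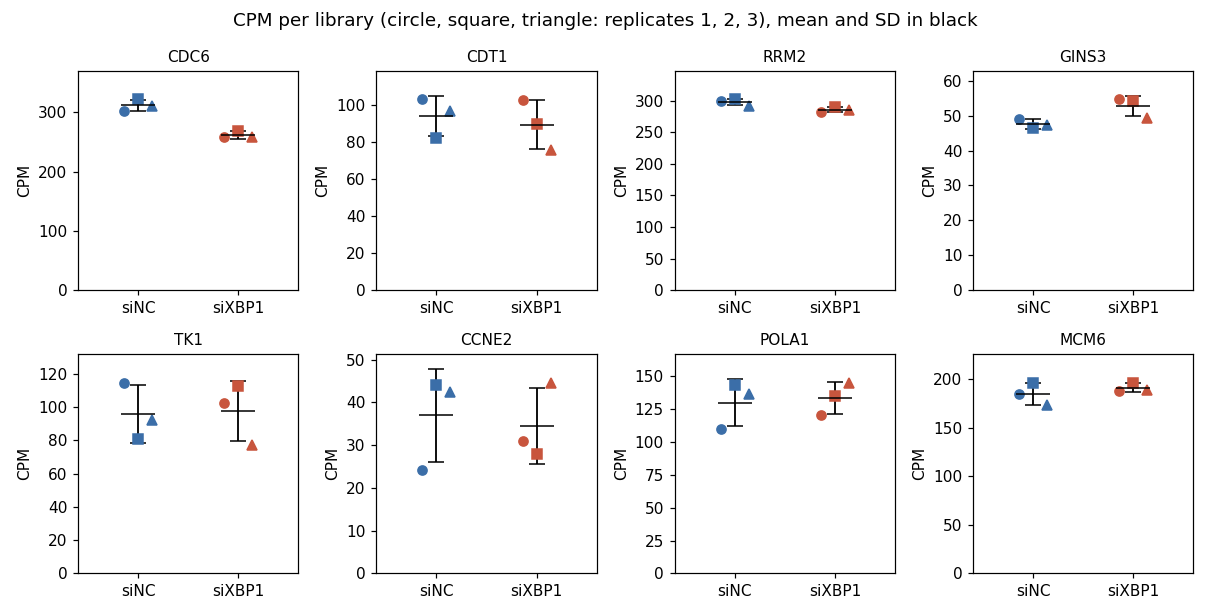
CPM (counts scaled to library size) of 8 members in each library, on axes that start at 0. Circles, squares and triangles are replicates 1, 2 and 3, and black marks are the mean and SD of 3 libraries. CDC6 sits at 303 to 322 CPM in siNC and 258 to 269 CPM in siXBP1, whereas TK1, CCNE2 and POLA1 differ as much within a group as between groups.

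The other licensing genes had fold changes nearer to 0. CDT1, its partner at origins, had 103, 82.1 and 96.9 CPM in siNC and 102, 89.6 and 75.8 CPM in siXBP1 (replicates 1 to 3). The groups overlapped in part, with siXBP1 replicate 3 below all siNC libraries, and the log2 fold change was -0.07 (SE 0.13). ORC1, the largest subunit of the origin recognition complex, had 58.9 ± 3.98 CPM in siNC and 61.3 ± 2.31 in siXBP1 (SD, n = 3 each). ORC6, its smallest subunit, had 48.4 ± 4.56 and 50.3 ± 2.51 CPM, and both ORC genes had a log2 fold change of 0.06. Their groups overlapped. Whether CDC6 differs from these genes in its response was not tested, and the 95% interval of CDT1 (-0.37 to 0.23) included the estimate of CDC6.

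The 6 subunits of the MCM2-7 helicase ring had log2 fold changes between -0.04 (MCM3) and 0.05 (MCM6), with SEs from 0.08 to 0.10. The siXBP1 mean was 97.3% to 103% of the siNC mean for each of them. MCM6 had 185, 197 and 173 CPM in siNC and 188, 196 and 189 CPM in siXBP1, so the siXBP1 libraries lay within the siNC range. MCM7 ranged from 437 to 507 CPM in siNC and from 419 to 488 CPM in siXBP1. Its highest library was siNC replicate 1 and its lowest siXBP1 replicate 3, as was the case for MCM2 and MCM3 too. MCM5 was lowest in siXBP1 replicate 3 (155 CPM, against 173 to 196 CPM in the other libraries). The 95% interval of MCM4 ran from -0.19 to 0.18, the narrowest among the 6 subunits.

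All 4 subunits of GINS, the complex that with CDC45 turns the loaded MCM ring into an active helicase, had positive estimates. Their log2 fold changes were 0.14 for GINS1 (SE 0.12), 0.14 for GINS2 (SE 0.13), 0.15 for GINS3 (SE 0.10) and 0.06 for GINS4 (SE 0.10), and none passed the test (edgeR adjusted p = 1.00 each). GINS3 had 49.1, 46.5 and 47.2 CPM in siNC and 54.7, 54.2 and 49.4 CPM in siXBP1. Its groups were apart by a narrow margin, 49.1 CPM in the highest siNC library against 49.4 in the lowest siXBP1 library. GINS1, GINS2 and GINS4 overlapped between groups. CDC45 had a log2 fold change of 0.02 (SE 0.11), with 59.1 CPM in siXBP1 replicate 3 against 63.9 to 72.1 CPM elsewhere. MCM10, which helps to start the helicase, had 76.2 ± 5.26 CPM in siNC and 79.1 ± 2.60 in siXBP1 (SD, n = 3 each; log2 fold change 0.06, SE 0.10).

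Genes of the polymerases and their clamp showed no difference beyond the spread between libraries. PCNA, the sliding clamp, had 194, 198 and 187 CPM in siNC and 178, 209 and 188 CPM in siXBP1, a log2 fold change of -0.01 (SE 0.10). POLE, the catalytic subunit of the leading-strand polymerase, had 102, 104 and 106 CPM in siNC and 100, 88.5 and 108 CPM in siXBP1 (log2 fold change -0.07, SE 0.10). Only siXBP1 replicate 2 stood below the others. POLA1, the catalytic subunit of the polymerase that extends primers, had 110, 144 and 136 CPM in siNC and 121, 135 and 145 CPM in siXBP1 (log2 fold change 0.04, SE 0.12). The clamp loader subunits RFC3 (0.12, SE 0.13) and RFC4 (-0.06, SE 0.10) had estimates of opposite sign. RFC3 was lowest in siNC replicate 1 (75.2 CPM) and highest in siXBP1 replicate 3 (104 CPM), the same libraries as for POLA1.

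Among the nucleotide supply genes, RRM2, the small subunit of ribonucleotide reductase, had 300, 302 and 292 CPM in siNC and 282, 289 and 285 CPM in siXBP1. The groups were apart, with siXBP1 at 95.9% of siNC (log2 fold change -0.06, SE 0.08, edgeR adjusted p = 1.00). RRM1, the large subunit of the same enzyme, overlapped between groups (1177 ± 43.4 and 1189 ± 86.4 CPM, SD, n = 3 each; log2 fold change 0.02, SE 0.08). TYMS, thymidylate synthase, had 63.6 ± 5.54 and 62.1 ± 2.18 CPM (log2 fold change -0.03, SE 0.11). TK1, the thymidine kinase of the salvage route, had 115, 80.7 and 92.1 CPM in siNC and 103, 113 and 77.4 CPM in siXBP1. Its highest level was 1.48 times its lowest, but the group means were 95.8 and 97.5 CPM (log2 fold change 0.03, SE 0.17), so its variation was within the groups.

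The G1/S regulators held both the most variable member and some of the steadiest. E2F2 (29.6 ± 2.86 CPM in siNC, 33.4 ± 2.04 in siXBP1, SD, n = 3 each) had the highest estimate of all members, 0.18 (SE 0.12), and E2F1 had 0.12 (SE 0.13). These activating E2F genes overlapped between groups, and E2F1 was at 48.7, 41.4 and 41.2 CPM in siNC and 53.3, 48.2 and 41.4 CPM in siXBP1. Cyclin E, the partner of CDK2 at S phase entry, is encoded by CCNE1 and CCNE2. CCNE1 had 14.7, 15.8 and 15.0 CPM in siNC and 13.1, 17.3 and 12.0 CPM in siXBP1 (log2 fold change -0.10, SE 0.16). CCNE2 had 24.3, 44.0 and 42.5 CPM in siNC and 31.0, 28.0 and 44.6 CPM in siXBP1 (log2 fold change -0.10, SE 0.24). The lowest and highest CCNE2 levels were 1.84-fold apart, the widest ratio among the members, and both groups held low and high libraries. CDK2 (177 ± 6.92 and 169 ± 5.48 CPM; log2 fold change -0.06, SE 0.09) and CDC25A, the phosphatase that activates it (93.2 ± 2.43 and 97.9 ± 3.22 CPM; 0.07, SE 0.09), varied little (SD, n = 3 each).

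The 3 S phase checkpoint genes had the same lowest and the same highest library, and their groups overlapped. CHEK1, the kinase that restrains origin firing when forks stall, had 66.9, 83.7 and 81.4 CPM in siNC and 72.4, 78.7 and 90.3 CPM in siXBP1 (log2 fold change 0.06, SE 0.13). CLSPN, the adaptor through which ATR activates CHEK1, had 73.8, 97.9 and 96.5 CPM in siNC and 92.5, 79.4 and 101 CPM in siXBP1 (0.02, SE 0.13). BRCA1, which serves homologous recombination and fork protection, had 72.1, 105 and 99.8 CPM in siNC and 84.8, 76.0 and 106 CPM in siXBP1 (-0.05, SE 0.16). Each of the 3 was lowest in siNC replicate 1 and highest in siXBP1 replicate 3.

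**Figure D3:**
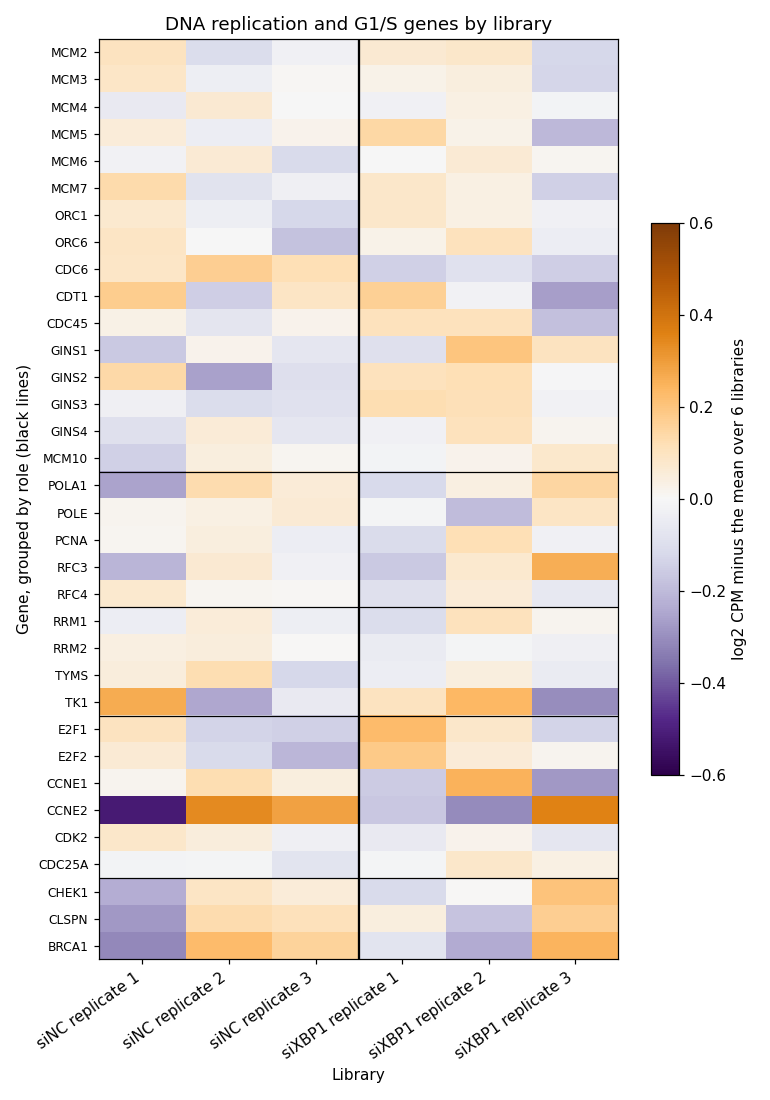
Log2 CPM of each member (rows, grouped by role) in each library (columns) minus its mean over 6 libraries. CDC6 is above its mean in the 3 siNC libraries and below it in the 3 siXBP1 libraries, whereas the checkpoint genes, at the bottom, are lowest in siNC replicate 1 and highest in siXBP1 replicate 3.

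For 28 of 34 members (82.4%, against 86.0% of all tested genes), siNC replicate 1 or siXBP1 replicate 3 differed from the other libraries of its own group by more than the groups differed. The first principal component of the 6 libraries, over 11528 genes, held 59.1% of the variance. It set siNC replicate 1 (score 0.643) apart from siXBP1 replicate 3 (-0.648), with the other libraries between -0.29 and 0.239. Relative to the other libraries of their own group, 10 members were lower in siNC replicate 1 and higher in siXBP1 replicate 3, and 19 members were the reverse. These are 29.4% and 55.9% of members, where the shares over all tested genes were 37.4% and 40.3%. On the log2 scale the deviations of siNC replicate 1 and siXBP1 replicate 3 were -0.83 and 0.60 for CCNE2, -0.50 and 0.40 for BRCA1, and -0.40 and 0.23 for CLSPN. They were 0.41 and -0.47 for TK1, 0.21 and -0.34 for CDT1, and 0.24 and -0.29 for E2F1. CDC6 was among the 5 members with both deviations on the same side, at -0.06 and -0.03.

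**Figure D4:**
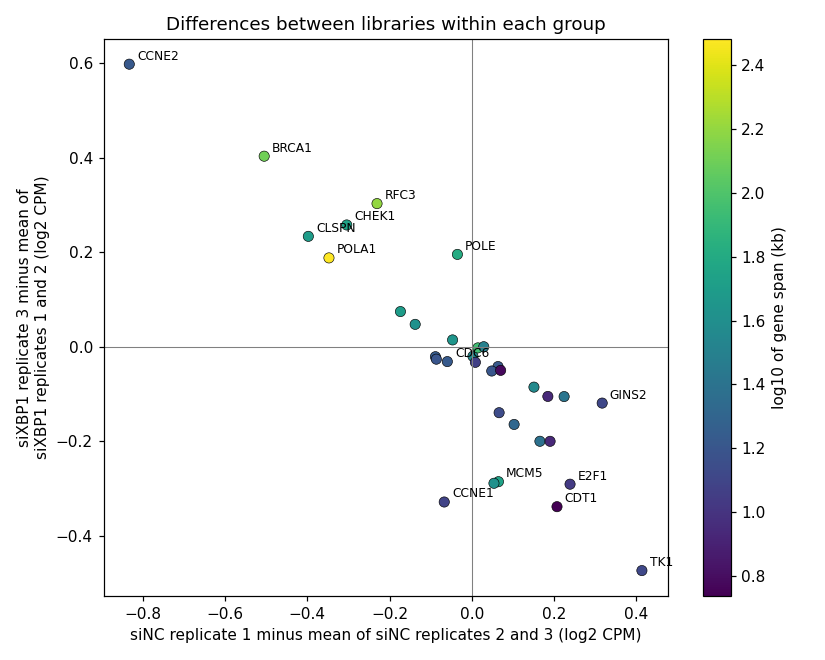
Each point is a member, placed by the log2 CPM of siNC replicate 1 minus the mean of the other siNC libraries (horizontal) and of siXBP1 replicate 3 minus the mean of the other siXBP1 libraries (vertical), and coloured by the log10 of gene span in kb. CCNE2 and BRCA1 lie at the upper left, TK1 at the lower right and CDC6 close to the centre.

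The members on opposite sides of this library pattern differed in gene span, the length from the RefSeq start to end with introns. Median span was 52.9 kb for the 10 members low in siNC replicate 1 (16.5 to 303 kb, POLA1 being the longest) and 15.9 kb for the 19 on the other side (5.47 to 88.4 kb, CDT1 being the shortest). Across the 34 members, Spearman's rho of span with the siNC replicate 1 deviation was -0.59 and with the siXBP1 replicate 3 deviation 0.64. Over 14328 tested genes with a span the values were -0.38 and 0.40. These are descriptions across genes that share the same 6 libraries, and the part of span or RNA quality in the pattern was not tested.

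Some fold changes depended on the 2 libraries at the ends of this pattern. With siNC replicate 1 and siXBP1 replicate 3 both left out, edgeR called 3 of 34 members, CCNE2 (log2 fold change -0.55, adjusted p = 0.00202) and BRCA1 (-0.34, adjusted p = 0.0204) as lower and TK1 (0.32, adjusted p = 0.0366) as higher. In that fit 3.42% of tested genes were called as lower and 1.45% as higher. The 4 remaining libraries, however, were also ordered by the component, with scores of -0.29 and -0.0814 in siNC and 0.239 and 0.136 in siXBP1, so that siRNA and component cannot be told apart there. CCNE2, BRCA1 and TK1 had log2 fold changes of -0.10, -0.05 and 0.03 with all 6 libraries and were not called with the component as a covariate (adjusted p = 0.265, 0.412 and 0.506). CDC6 had -0.25 in the fit without both libraries (adjusted p = 0.07).

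The other genes of replication and G1/S control, from lists that do not overlap the members, were described in the same fit, and 0 of them were called by edgeR or DESeq2. Of 33 other replication factors, 18 had higher and 15 lower estimates, with a median of 0.01 and 0 genes at an unadjusted p under 0.05. POLD1, the catalytic subunit of the lagging-strand polymerase (-0.18, SE 0.15), and POLE2, a subunit of the POLE holoenzyme (0.17, SE 0.14), had the smallest p-values, and MCMBP, which binds MCM proteins and had the highest CPM of the list, had 0.01 (SE 0.08). Of 14 other genes of nucleotide synthesis, 3 had higher and 11 lower estimates (78.6% lower, against 47.2% of all tested genes), with a median of -0.03. Among them CAD, which starts pyrimidine synthesis, had 199 ± 12.9 CPM in siNC and 182 ± 8.14 in siXBP1 (SD, n = 3 each; log2 fold change -0.12, SE 0.09). PPAT of purine synthesis had -0.15 (SE 0.16) and CTPS1, CTP synthase, -0.07 (SE 0.08). Without siNC replicate 1 and siXBP1 replicate 3, PPAT was called as lower (-0.39, edgeR adjusted p = 0.0393), 7.14% of its list. In that fit 1 of the 33 other replication factors was also called as lower (3.03%), where 3.42% of tested genes were. There siRNA and component cannot be told apart.

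Of 23 other G1/S regulators, 22 were tested, 10 with higher and 12 with lower estimates. By edgeR 2 had an unadjusted p under 0.05 (9.09%, against 3.61% of tested genes). CDKN2B, the inhibitor p15 of the cyclin D kinases, had 92.5, 95.4 and 97.6 CPM in siNC and 113, 111 and 121 CPM in siXBP1. Its groups were apart (log2 fold change 0.27, SE 0.09, edgeR adjusted p = 1.00), and with the component as a covariate it rose by 0.25 (SE 0.06, adjusted p = 0.0325). It was the 1 gene of this list called in that fit (4.55%), in which 0.711% of tested genes were called as higher. E2F8, a repressive E2F, had 5.66, 6.97 and 5.82 CPM in siNC and 7.98, 8.10 and 7.90 CPM in siXBP1 (0.38, SE 0.15, adjusted p = 1.00). CCND1, cyclin D1, had 343 ± 10.7 and 347 ± 5.63 CPM (SD, n = 3 each). Of 13 other S phase checkpoint and fork genes, 7 had higher and 6 lower estimates. By edgeR 2 of them had an unadjusted p under 0.05 (15.4%, against 3.61% of tested genes). These were RAD9A, a subunit of the checkpoint clamp (25.9 ± 2.45 to 19.3 ± 3.01 CPM; -0.43, SE 0.15), and UHRF1, which maintains DNA methylation at forks (145 ± 4.99 to 124 ± 5.16 CPM; -0.21, SE 0.09). In both, each siXBP1 library was below each siNC library (15.4% of the list, against 3.74% of tested genes). For 2 other genes of this list each siXBP1 library was above each siNC library (15.4%, against 5.01% of tested genes). Neither RAD9A nor UHRF1 passed after adjustment (edgeR adjusted p = 1.00 each). CDC25B, with the highest CPM of this list, had 0.10 (SE 0.10). Without siNC replicate 1 and siXBP1 replicate 3, edgeR called 1 of the 22 G1/S regulators as higher and 1 as lower (4.55% each). It called 2 of the 13 checkpoint and fork genes as lower (15.4%). In that fit 3.42% of tested genes were called as lower and 1.45% as higher, and siRNA and component cannot be told apart.

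Genes of G2 and mitosis, the phases that follow S phase, had estimates between -0.08 and 0.07 with all 6 libraries. Of 21 such genes 11 had higher and 10 lower estimates, with a median of 0.01 and 0 genes at an unadjusted p under 0.05. AURKA (-0.08, SE 0.09), FOXM1 (0.07, SE 0.09) and TOP2A (0.03, SE 0.15) are examples. Without siNC replicate 1 and siXBP1 replicate 3, edgeR called 5 of the 21 as lower (23.8%, where 3.42% of tested genes were), in the fit in which siRNA and component cannot be told apart. These were CENPE (-0.77), ASPM (-0.65), KIF11 (-0.44), MKI67 (-0.33) and CENPF (-0.31), named because of that call. With the component as a covariate ASPM alone of the list was called (-0.26, adjusted p = 0.0275). This is 4.76% of the list, where 0.488% of tested genes were called as lower. The summed level of the 21 genes was lowest in siNC replicate 1 (3208 CPM) and highest in siXBP1 replicate 3 (3883 CPM), as for the checkpoint genes.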

How the data were processed

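RNA-seq was analysed from 6 libraries of cells labelled HepG2, made with a stranded TruSeq kit per the labels' protocols. The deposited values are raw read counts per NCBI Gene ID, which the authors obtained with STAR 2.5.2a and featureCounts 1.5.0 on hg38, per the submitters' processing notes. The sources used here give neither the strand setting nor the annotation, so reads of overlapping or antisense genes may be shared. Names came from RefSeq (GRCh38.p14) for 18526 of 18555 IDs. Among counts from 1 to 40, 78.4% were even, as when both mates of a pair are counted, so fragments may be fewer than counts. The 2 ChIP-seq samples were not analysed here.

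Groups and replicate numbers came from sample titles. Genes were filtered with filterByExpr, normalized with TMM (factors 0.984 to 1.01) and tested with edgeR 4.0.16 (R 4.3.3), quasi-likelihood, two-sided, group as the only term, Benjamini-Hochberg over 14337 genes, threshold 0.05. The SE is the log2 fold change divided by the square root of F. CPM are counts scaled to the library total, and levels are not compared between genes because no transcript lengths were used. Alternatives used DESeq2 1.42.0, limma 3.58.1 (voom), other scalings and filters, a replicate block, libraries left out, and the first component (over genes averaging 100 counts or more) as a covariate. The procedure was run on simulated counts with a smaller spread than these libraries and no library pattern. That run therefore does not show how the test performs on these data. All members could be named, and for each other list the 2 genes with the smallest p and the 1 with the highest CPM were named, since none was called. Up to 5 genes most like the mean member pattern were named too. The members, lists and alternatives were chosen with earlier results of these data known.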

Additional observations from a re-analysis of the deposited data

How the results depend on the processing

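The count of called genes over the whole table was 1 (XBP1) and became 0 with upper-quartile factors or a threshold of 0.01, 15 with DESeq2, 172 with the first component as a covariate and 702 without both end libraries. With 1 library left out it lay between 0 and 1, and it was 0 without siNC replicate 2 or 3 or siXBP1 replicate 1 or 2. Of the members, 0 were called in each of these fits except 1 with the covariate and 3 without both end libraries. The members' median log2 fold change stayed within its replicate SD (0.037) of 0.02 in every alternative run, and lay between -0.0025 and 0.042 with 1 library left out. No replicate pairing was taken: same-numbered libraries had deviations correlated at 0.60, -0.36 and 0.43, 3 of 6 libraries correlated best with their own number, and the replicate block gave 1 called gene and 0 members. Over the 6 fits with 1 library left out, 15 of 34 members had one sign throughout, CDC6 (-0.28 to -0.23) and GINS3 (0.12 to 0.18) among them. The sign of the small log2 fold changes turned with the covariate for MCM5 (0.0189), MCM7 (0.0296), POLA1 (-0.0121), CLSPN (-0.0313), MCMBP (-0.00983) and TOP2A (-0.0434). It turned without both end libraries for MCM3 (0.0534), MCM5 (0.0984), MCM7 (0.12), CDT1 (0.10), MCM10 (-0.0213), POLA1 (-0.13), PCNA (0.0122), RFC3 (-0.052), TYMS (0.00423), CHEK1 (-0.12), CLSPN (-0.17), POLD1 (0.0057), MCMBP (-0.054) and TOP2A (-0.22). It turned with at least 1 library left out for MCM2 (-0.0343 to 0.0742), MCM3 (-0.0809 to 0.00265), MCM4 (-0.0384 to 0.0196), MCM5 (-0.0912 to 0.0613), MCM6 (-0.00413 to 0.0883), MCM7 (-0.0657 to 0.0484), ORC6 (-0.0219 to 0.12), CDT1 (-0.18 to 0.0191), CDC45 (-0.0367 to 0.10), MCM10 (-0.00323 to 0.0867), POLA1 (-0.0701 to 0.11), PCNA (-0.0847 to 0.0472), RRM1 (-0.045 to 0.0733), TYMS (-0.11 to 0.0165), TK1 (-0.10 to 0.17), CCNE2 (-0.33 to 0.0464), CHEK1 (-0.0421 to 0.13), CLSPN (-0.0993 to 0.10), BRCA1 (-0.21 to 0.0458), MCMBP (-0.0392 to 0.0394), CCND1 (-0.00979 to 0.0326), TOP2A (-0.12 to 0.14), UQCRC2 (-0.034 to 0.0545), AMPD3 (-0.00636 to 0.20), SERPINB7 (-0.0287 to 0.24) and CCDC28A (-0.017 to 0.19). The cause was not tested. The 95% interval lay between -0.5 and 0.5 on the log2 scale for 33 of 34 members, and how far depth sets its width was not tested.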

Other observations

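The mean of the 34 members' log2 CPM, centred per gene, moved between -0.02 (siNC replicate 1) and 0.04 (siXBP1 replicate 2) over the 6 libraries. Members followed this mean to different degrees, with Pearson's r over 6 libraries from -0.81 (POLE) to 0.90 (GINS4) and -0.09 for CDC6. Among 10598 genes outside the lists with a mean of at least 5 CPM, those most like the mean pattern were UQCRC2 (r = 0.98), AMPD3 (0.98), SERPINB7 (0.97), CCDC28A (0.97) and CDK11A (0.97), whose level is uncertain because it shares reads with a near-identical copy. They were picked as the highest of many values over 6 libraries, and the r is a description only.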
